A study of Mus musculus with 12 samples.

Results

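Alb, Ahsg, Fga, Fgg, Apoa5, Cyp3a11, Mup3 and Mup6 are 8 genes transcribed mainly in hepatocytes, and all 8 had values in a table of ribosome-bound RNA pulled down from mouse hypothalamus. They were taken by symbol, 8 of the 5764 genes in the table, and were selected on their CPM values over all 12 libraries, as hepatocyte transcripts that stand out there. Their levels are therefore given as a description. All 8 were above 0 in a single library, replicate 4 of the SENS group (SENS 4 below), where Alb had the highest value of any gene in the table.

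Hepatocytes make most proteins of blood plasma. Their genes are switched on together by a small set of liver-enriched transcription factors, among them HNF1, the forkhead proteins of the FOXA family and C/EBP. In mice hepatocytes also make the major urinary proteins, small pheromone-carrying lipocalins that pass through the kidney into urine. Hepatocytes, and not neurons, are the main source of the products of these 8 genes.

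The samples came from POMCRiboTag mice, in which a ribosomal protein carrying the HA tag is made in cells that express Cre from the pro-opiomelanocortin (POMC) promoter. That promoter is also active in pituitary cells. Microdissections enriched for the arcuate nucleus were homogenised, an antibody against HA was used to recover the tagged ribosomes, and libraries were made from 0.5 ng of RNA. All mice of both groups had fasted for 16 h, had been habituated to the room for 1 h and were exposed for 10 min at about zeitgeber time 6 h. The 6 SENS libraries came from mice shown standard chow in a wire mesh, and the 6 NEO libraries from mice shown wooden dowel pins in a wire mesh. The sources used here give neither age nor sex. Nothing in the labels ties each library to a separate mouse, and mice were housed in pairs or triplets, so the p-values below measure only the spread between these libraries.

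Values are CPM, read counts scaled so that the table's genes sum to a common total in each library. With 6901 to 18299 reads in these genes per library, a single read stood for 54.6 to 145 CPM. No gene averaged more than 14.2 reads per library, so genes with higher counts are absent from the totals behind each CPM and share. A value of 0 in a library allows up to 3 reads. Reads amplified from so little RNA are not independent molecules, so intervals and limits here cover counting error only. Of the neuronal markers, 0 of 19 genes of POMC and arcuate neurons were among the genes of the table, so the labelled cell type was not analysed here, nor were glia (0 of 11), endothelium and mural cells (0 of 8), tanycytes and ependyma (0 of 6) or meningeal fibroblasts (0 of 6).

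SENS 4 stood apart from the other 11 libraries in the summed level of the 8 genes. Its sum was 11966 CPM, from 128.5 of the 219.5 reads that the 8 genes had in all (58.5%). The next library, SENS 6, had 2077 CPM, and NEO 4 had 0. These reads were 1.20% of the table's reads in SENS 4, against at most 0.208% elsewhere. Its reads in the table's genes were within the range of the others, at 10739 with 2024 genes above 0. The full sequencing depth of the libraries is not known from the table. The pituitary hormone genes Prl and Gh were high in the same library and are given with the other cell types at the end.

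**Figure D1:**
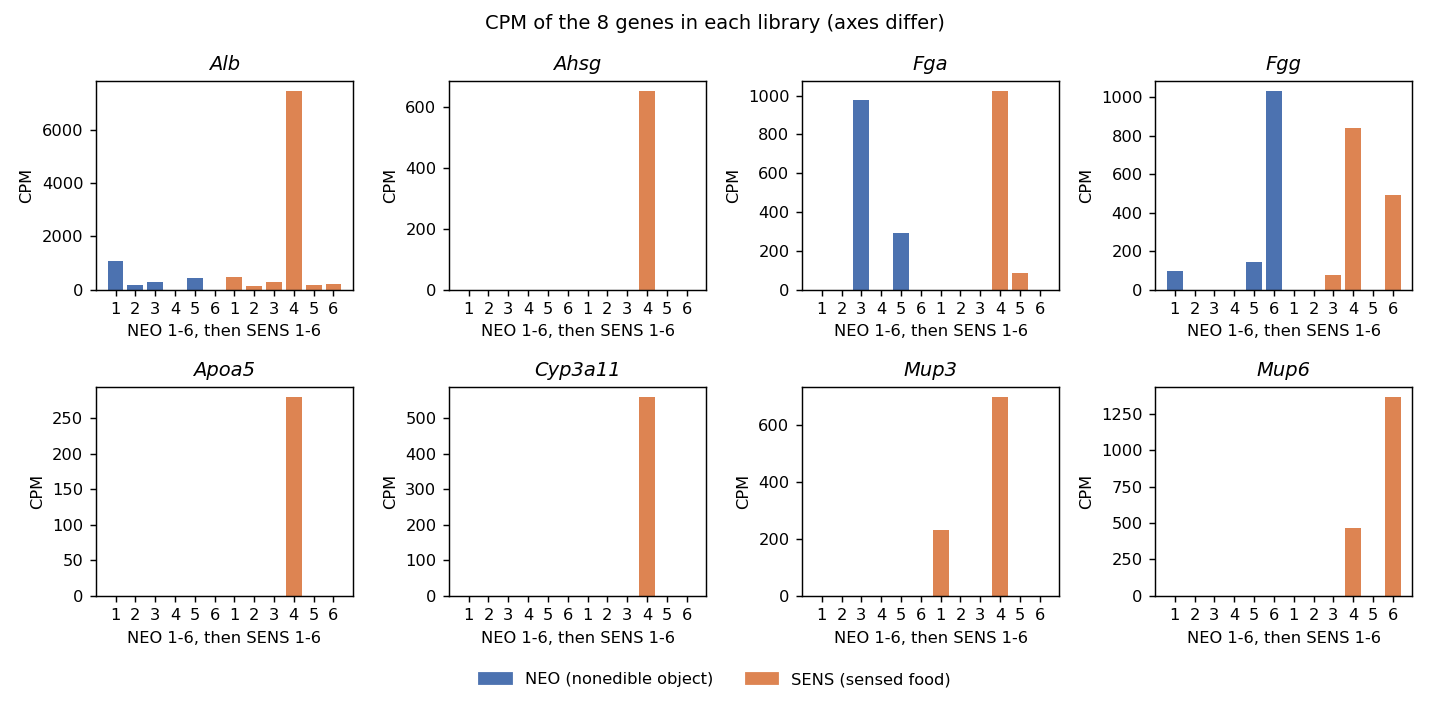
CPM (vertical axes, which differ between panels) of each of the 8 genes in the 6 NEO and 6 SENS libraries, 1 bar per library. SENS 4 is the library in which every gene has a value above 0, while Ahsg, Apoa5 and Cyp3a11 are at 0 in the other 11.

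Alb encodes albumin, the most abundant plasma protein, and lies at chr5:90460870-90476602 (RefSeq, GRCm38.p6). It was above 0 in 10 of the 12 libraries. The NEO libraries ranged from 0 to 1075 CPM with a mean of 328 ± 402 CPM (SD, n = 6), and the highest, NEO 1, rested on 11 reads. The SENS libraries had 464, 128, 300, 7449, 166 and 219 CPM in replicates 1 to 6, a mean of 1454 ± 2939 CPM (SD, n = 6). In reads, SENS 4 had 80 and each of the other SENS libraries between 2 and 4. The groups overlapped, with 5 of the 6 SENS libraries inside the NEO range and SENS 4 above it. Without SENS 4 the SENS mean was 255 ± 133 CPM (SD, n = 5). Alb took 0.745% of the table's reads in SENS 4 (exact Clopper-Pearson 95% interval 0.591 to 0.926%). The next share was 0.107% in NEO 1 (0.0537 to 0.192%). These values are among those Alb was selected on, so they describe the libraries and test nothing.

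Ahsg, Fga and Fgg encode other plasma proteins. Ahsg (chr16:22892015-22899451) encodes fetuin-A, a plasma glycoprotein that keeps calcium phosphate from precipitating. Fga (chr3:83026153-83033627) and Fgg (chr3:83007724-83015056) encode the alpha and gamma chains of fibrinogen, the precursor of the fibrin clot. The gene of the beta chain, Fgb, is their neighbour at chr3:83042246-83049863, and the 3 genes span 42.1 kb. The 150 bases before the starts of Alb, Fga and Ahsg are shown because they hold matches to motifs of liver-enriched factors, each on its coding strand. Capitals mark matches to GTTAAT, the core of an HNF1 site, or to TTGCNNAA, a pair of C/EBP cores, on either strand. The windows are chr5:90460720-90460869 for Alb, chr3:83026003-83026152 for Fga and chr16:22891865-22892014 for Ahsg, all on the plus strand (RefSeq, GRCm38.p6).
Alb: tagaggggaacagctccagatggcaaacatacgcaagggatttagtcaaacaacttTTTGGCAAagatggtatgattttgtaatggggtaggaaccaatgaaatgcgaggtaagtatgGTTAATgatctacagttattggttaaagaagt
Fga: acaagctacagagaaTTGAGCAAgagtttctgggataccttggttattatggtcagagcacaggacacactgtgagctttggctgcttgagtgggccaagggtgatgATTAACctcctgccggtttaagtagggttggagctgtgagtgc
Ahsg: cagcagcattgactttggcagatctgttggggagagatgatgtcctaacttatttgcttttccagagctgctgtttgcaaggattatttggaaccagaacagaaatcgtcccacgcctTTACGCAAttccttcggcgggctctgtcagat
Alb and Fga each hold both motifs and Ahsg the C/EBP cores alone.

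The motifs were searched on both strands in the 250 bases before to 50 after each start. GTTAAT was in 2 of the 8 promoters, against 7.10% of 32851 mouse promoters, and its match lay 32 bases before the start of Alb and 43 before that of Fga. TTGCNNAA was in 3 of 8, against 10.8% of all promoters. The forkhead core TGTTTAC was in Cyp3a11 only, against 3.65%, and TATAAA was in Apoa5, Cyp3a11 and Mup6, against 13.6%. Fgg and Mup3 held none of these letters in the window. Matches of different motifs did not overlap. The counts are descriptions of 8 promoters, and a match is not shown to be a bound site.

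Ahsg was above 0 in SENS 4 only, at 652 CPM from 7 reads. Over the other 11 libraries together, 0 reads of 118939 allow a level of up to 25.2 CPM. A 0 in a single library allows far more, 164 to 435 CPM. Ahsg was selected on these values, so no fold is given. The SENS mean of 109 ± 266 CPM (SD, n = 6) rested on that library alone.

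Fga and Fgg were not held by SENS 4 alone. Fga had 979 CPM (7 reads) in NEO 3 and 1024 CPM (11 reads) in SENS 4. It had 289.8 CPM (2 reads) in NEO 5 and 83.1 CPM (1 read) in SENS 5, and was at 0 in the other 8 libraries. Its means were nearly level between the groups, at 211 ± 393 CPM for NEO and 185 ± 413 CPM for SENS (SD, n = 6 each). Fgg had 1033 CPM (8 reads) in NEO 6, 838 CPM (9 reads) in SENS 4 and 492 CPM (9 reads) in SENS 6. It had 1 read each in NEO 1, NEO 5 and SENS 3 and 0 in the other 6. Its means were 213 ± 407 CPM for NEO and 234 ± 352 CPM for SENS (SD, n = 6 each). For each chain 1 NEO library was close to or above the level of SENS 4.

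The fibrinogen chains, which are secreted as 1 complex, were high in different libraries. Fga was at 0 in NEO 6 and SENS 6, where Fgg was high, and Fgg was at 0 in NEO 3, where Fga was high. Fgb, which is not one of the 8, had 42 reads (4104 CPM) in NEO 1, 6 reads (559 CPM) in SENS 4 and at most 5 reads elsewhere. In NEO 1 Fga was at 0 and Fgg had 1 read. SENS 4 was the only library in which all 3 chains were above 0. Across the 12 libraries the Spearman correlation of Fga and Fgg was 0.13, a description over sparse counts.

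Apoa5 and Cyp3a11, like Ahsg, were above 0 in SENS 4 only. Apoa5 (chr9:46268608-46271921) encodes an apolipoprotein that lowers plasma triglycerides. It had 3 reads (279 CPM) in SENS 4, a count that a 0 also allows, and 0 in the other 11 libraries. Cyp3a11 (chr5:145854607-145879854) encodes a cytochrome P450 that oxidises drugs and steroids and is the 1 intracellular protein among the 8. It had 6 reads (559 CPM) in SENS 4 and 0 elsewhere. The other 11 libraries together allow up to 25.2 CPM, and a 0 in a single library 164 to 435 CPM. Being above 0 in SENS 4 alone was true of these 3 of the 8 genes and of 1.63% of the 5141 genes above the low-value filter (84 genes). The 8 genes were selected on these same values, so nothing is read from the contrast.

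Mup3 and Mup6 belong to the urinary proteins. Mup3 (chr4:62083476-62087317) and Mup6 (chr4:60003481-60007274) lie at places of the family's cluster that span 2084 kb from the start of Mup6 to the end of Mup3. The annotation holds 22 protein-coding Mup genes. These genes are close copies of each other, so reads can match several of them. The next lines show how alike the 150 bases before both starts are. Those bases lie outside the transcripts, so their likeness does not show how reads were assigned. The windows are chr4:62087318-62087467 on the minus strand for Mup3 and chr4:60003331-60003480 on the plus strand for Mup6. Capitals mark the longest run of bases the windows share, which is 22 bases long.
Mup3: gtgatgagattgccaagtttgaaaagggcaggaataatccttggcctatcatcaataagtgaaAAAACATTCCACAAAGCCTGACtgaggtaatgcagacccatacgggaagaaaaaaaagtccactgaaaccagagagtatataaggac
Mup6: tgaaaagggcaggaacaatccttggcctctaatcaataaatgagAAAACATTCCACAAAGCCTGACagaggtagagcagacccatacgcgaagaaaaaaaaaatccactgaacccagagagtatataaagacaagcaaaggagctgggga
Aligned over the upstream bases, Mup3 and Mup6 were identical at 208 of 269 positions (77.3%), against 45.4 to 53.8% for the other pairs of the 8 genes.

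Mup3 had 7.5 reads (698 CPM) in SENS 4, 2 reads (232 CPM) in SENS 1 and 0 in the other 10 libraries. Its value in SENS 4 is the only one of the 8 genes that was not a whole number of reads, as when a read is divided among genes, so its level is uncertain. Mup6 had its highest value outside SENS 4, with 25 reads (1366 CPM) in SENS 6 and 5 reads (466 CPM) in SENS 4. All 6 NEO libraries were at 0 for both genes, which allows up to 58.8 CPM over the NEO libraries together. The 83.3% of Mup6 reads in SENS 6 came without Mup3, which was at 0 there, and with 4 reads of Alb.

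The rest of the family followed SENS 4 and not SENS 6. Of the 12 Mup genes listed besides Mup3 and Mup6, 10 were above 0 in some library, and 9 were above 0 in SENS 4. The 12 family members other than Mup3 and Mup6 summed to 2838 CPM (30.48 reads) in SENS 4 and to between 0 and 333 CPM in every other library. In SENS 6 the family's 1366 CPM were all Mup6. Mup15 had 5.15 of its 7.15 reads in SENS 4 and Mup9 4.93 of its 6.31. Mup7 and Mup14 were at 0 in every library. Since these reads are largely fractions, the sum over the family is firmer than any single member.

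**Figure D2:**
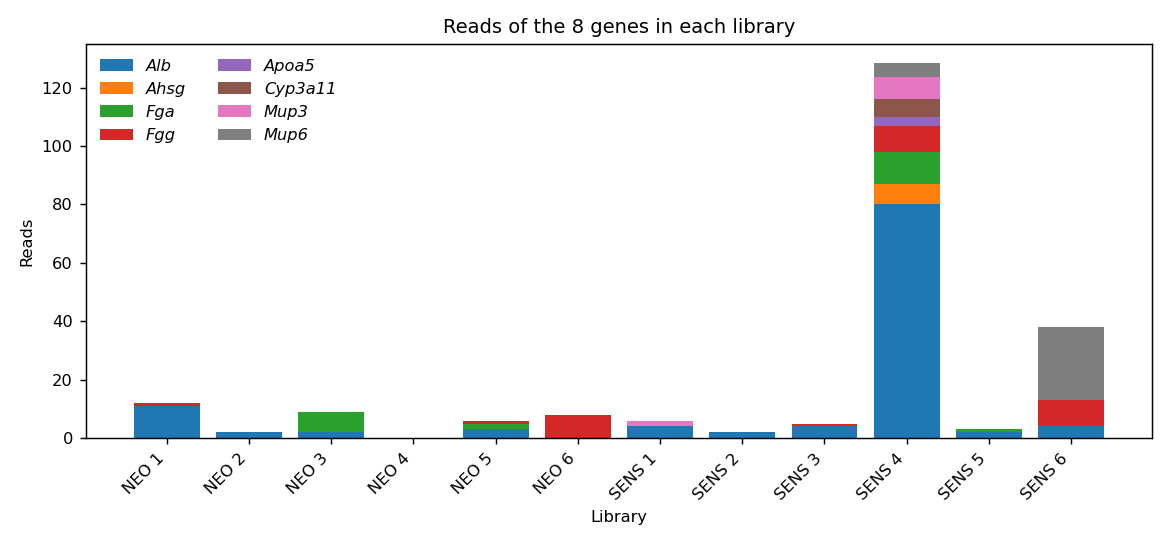
Reads of the 8 genes stacked in each of the 12 libraries, on the scale where 1 is a read. SENS 4 holds 128.5 reads, 80 of them Alb, and SENS 6 is next with 38, of which 25 are Mup6.

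All 8 genes were above 0 together in SENS 4, and at most 3 of them in any other library. Of the 96 combinations of gene and library 27 were above 0, 8 of them in SENS 4. At 5 reads or more there were 12, of which 7 were in SENS 4. The other 5 were Alb in NEO 1 (11 reads), Fga in NEO 3 (7), Fgg in NEO 6 (8) and Fgg and Mup6 in SENS 6 (9 and 25). In NEO 6 no other gene of the 8 was above 0, Alb included. All 28 pairs of the 8 genes were above 0 together in SENS 4, and 22 of these pairs shared no other library. The pairs' Spearman correlations ran from 0.13 to 1.00 with a median of 0.51 over 12 libraries, values that all include SENS 4. The value of 1.00 was that of pairs among Ahsg, Apoa5 and Cyp3a11, fixed because each was above 0 in SENS 4 alone. Without SENS 4 pairs with these genes had no correlation. The other pairs then ran from -0.27 (Fgg and Mup3) to 0.44 (Fgg and Mup6), with Fga and Fgg at -0.14.

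Read against all genes, 8 of 8 were above 0 in SENS 4, as were 39.4% of the 5141 genes. For 6 of 8, SENS 4 was the highest of the 12 libraries, against 8.07% of genes. The exceptions were Fgg, highest in NEO 6, and Mup6, highest in SENS 6. This is the pattern by which the genes were chosen, so nothing is read from these shares. A single library often held much of a gene in this sparse table. Among the 2782 genes with at least 10 reads the median share in the top library was 33.3%. Alb had 70.2% in SENS 4, and 10.4% of those genes reached that share or more in some library, while Fgg at 31.0% in SENS 4 was near the median.

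The comparison of SENS with NEO asks whether sensing food changes the RNA on ribosomes of POMC cells. None of the 8 genes passed, in limma on log2(CPM + 1) with Benjamini-Hochberg adjustment over the 5141 genes. Nor did any other gene (0 called, percent called 0, smallest adjusted p = 0.728), while 94 genes (1.83%) were higher and 95 (1.85%) lower in SENS at an unadjusted p under 0.05, with none of the 8 among them. The log2 differences were 2.94 (SE 1.72) for Alb and 3.21 (SE 1.87) for Mup6, both with limma adjusted p = 0.745 (unadjusted 0.0897 and 0.0894). They were 2.89 for Mup3, 1.56 for Ahsg, 1.52 for Cyp3a11 and 1.36 for Apoa5, all with the same adjusted p. For these 4 genes and Mup6 the NEO group was at 0, so the size depends on the added 1 CPM. That of Alb, at 0 in NEO 4 and NEO 6, also depends on it. With 0.1 CPM added Alb was 4.05 and with 100 CPM 0.94. It was 1.80 without NEO 4, and also without NEO 6. Fga and Fgg had the widest errors, at -0.29 (SE 2.55) and 0.18 (SE 2.80), with limma adjusted p = 1.00. The median over all genes was 0.39, and 57% of genes had a difference above 0, beside 7 of these 8. The table held 51054 reads in NEO and 78624 in SENS, and whether this bears on the shift was not tested. For 0 of the 8 did the groups lie apart without overlap, beside 0.0195% of genes apart with SENS higher and 0.0778% with SENS lower. In bulk RNA, fewer cells of a type and less RNA per cell cannot be told apart.

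**Figure D3:**
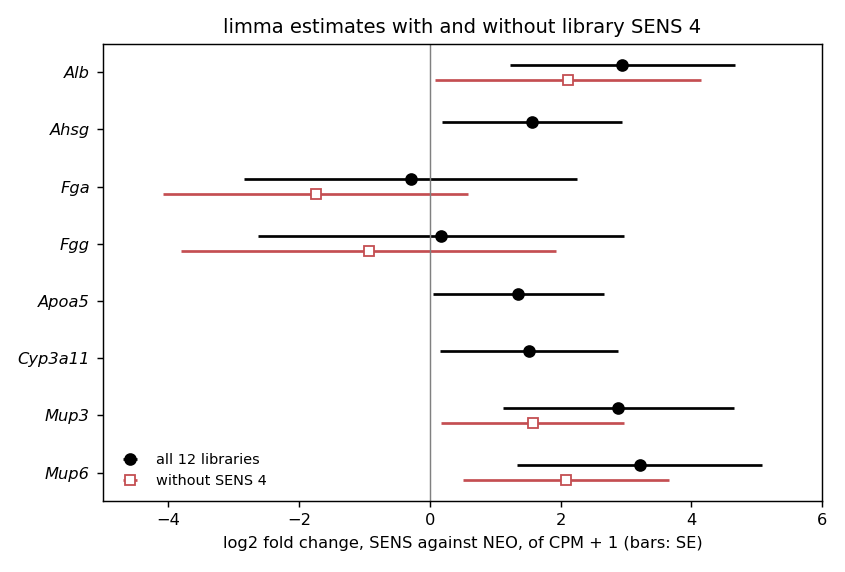
Log2 difference, SENS minus NEO, on the log2(CPM + 1) scale for the 8 genes, with all 12 libraries and without SENS 4. Points are limma estimates with their standard errors. Ahsg, Apoa5 and Cyp3a11 have no second point because they are at 0 everywhere else, and no gene passed the test.

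The group difference of the 8 genes turned on SENS 4. Their summed CPM was 752 ± 533 in NEO, from 0 to 1259 with a median of 951, and 2582 ± 4652 in SENS (SD, n = 6 each). The SENS mean minus the NEO mean was 1830 CPM with SENS 4 and -47.2 CPM without it, when the SENS mean came to 705 ± 795 CPM (SD, n = 5). Without SENS 4 the log2 differences were 2.11 (SE 2.03) for Alb, 1.57 (SE 1.40) for Mup3 and 2.08 (SE 1.57) for Mup6, each with limma adjusted p = 0.739. Those of Fga and Fgg were then -1.74 (SE 2.33) and -0.93 (SE 2.86), with limma adjusted p = 0.767 and 0.939. No gene of 5057 was called without it. The log2 difference of Alb stayed above 0 although its SENS mean (255 CPM) was then below its NEO mean (328 CPM). The zeros of NEO 4 and NEO 6 weigh heavily on the log2 scale, so its sign is not read as higher Alb in SENS. The numbers in the sample descriptions fall into 3 runs, whose meaning is not given. In numbers 1062 to 1074, with 3 libraries a group, the summed difference of the 8 genes was 3677 CPM, or -228 CPM without SENS 4. In numbers 1103 to 1116, with 2 a group, it was 212 CPM, and in 1046 to 1050, with 1 a group, -477 CPM.

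Other hepatocyte genes were then read from lists of secreted proteins (74 of 117 listed genes in the table), metabolic enzymes (58 of 91) and transporters, receptors and transcription factors (20 of 36). Of these 152 genes 80 (52.6%) were above 0 in SENS 4, against 31 to 59 (20.4 to 38.8%) in each of the other libraries. The corresponding share of all tested genes was 39.4% in SENS 4 and 27.6 to 46.7% in the others. SENS 4 was thus the library with the most hepatocyte genes, though not with the most genes. The secreted and enzyme lists had the most there, with 43 secreted genes against 20 to 32 elsewhere and 28 enzymes against 5 to 19. The transporter list did not, with 9 genes against 5 to 12.

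**Figure D4:**
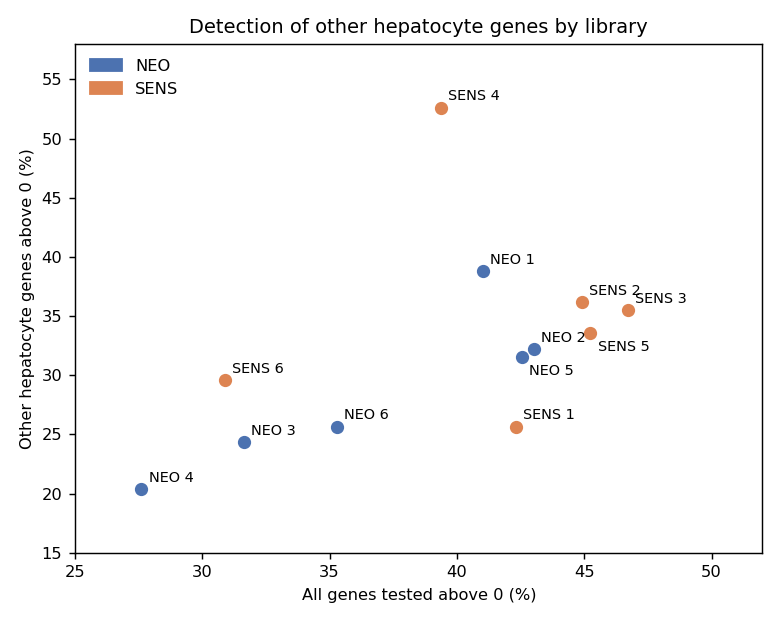
Share of the 152 other hepatocyte genes above 0 (vertical axis, percent) against the share of all 5141 tested genes above 0 (horizontal axis, percent), 1 point per library. SENS 4 lies highest at 52.6% with 39.4% of all genes, and the next, NEO 1, has 38.8%.

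Most of these genes rested on very few reads. Of the 144 above 0 in some library, 12 were above 0 in SENS 4 alone, and 10 of those had 1 read. The exceptions were Mat1a, which makes S-adenosylmethionine, with 3 reads, and Hamp, the iron hormone hepcidin, with 2. The 10 with 1 read included Apob, the scaffold of very low density lipoprotein, Pck1, the entry enzyme of gluconeogenesis, and C9 of the complement attack complex. These 12 were 8.33% of the 144, beside 1.63% of all genes. SENS 2 alone held 8 of the 144 (5.56%, beside 2.22% of all genes), and each remaining library alone held 0 to 4. SENS 4 was the highest library for 32 of the 144 (22.2%), against 4.17 to 11.8% for each other library. The summed level did not follow: the 152 genes had 29000 CPM in SENS 4 and 31806 CPM in NEO 1, within a range of 16088 to 31806 CPM.

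None of the listed genes passed the test between the groups (0 of 144 by limma). The median log2 difference was 0.84 over the 144, 91 of them above 0, beside 0.39 over all genes. Without SENS 4 it was 0.29 over 132 genes, beside 0.41. The most abundant listed genes varied in their place in SENS 4. Thpo, the hormone thrombopoietin, had 0 reads in SENS 4 of 89 in all. Serpinc1, antithrombin, was above 0 in all 12 libraries with 5 reads in SENS 4 of 85, and Orm3 and Masp2 had 4 and 2. In the enzyme list, Ttc36 had 2 of 65 reads there, Adh1, an alcohol dehydrogenase, 15 of 112.5 and Aox3, an aldehyde oxidase, 14 of 77. Creb3l3, a liver transcription factor of lipid metabolism, was highest in SENS 4 with 23 of 88 reads, while Abcc6 and Abcg5 had 4 each and Fgfr4 had 0. Listed genes at 0 in every library were Apoc4, Serpina6, Cpn2, C8a and Afm of the secreted proteins and Hpd, Otc and Ugt2b34 of the enzymes.

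Cyp3a11 belongs to the cytochrome P450 families 1 to 4, none of which passed the test between the groups. Of the 47 genes of these families listed besides Cyp3a11, 43 were above 0 in some library. Their log2 differences were above 0 for 21 and below for 22, with a median of -0.05. Over all genes 57% were above 0, with a median of 0.39. SENS 4 was the highest library for 7 of the 43 (16.3%), beside 8.07% of all genes. Cyp2j13 was highest in SENS 4 with 22 of 81.2 reads. Cyp4b1 had 3.5 of 95.5 there, Cyp2t4 5 of 67 and Cyp2j12 1 of 55. Cyp3a41a, Cyp2d12, Cyp2c50 and Cyp2c70, which are liver enzymes, were at 0 in every library.

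**Figure D5:**
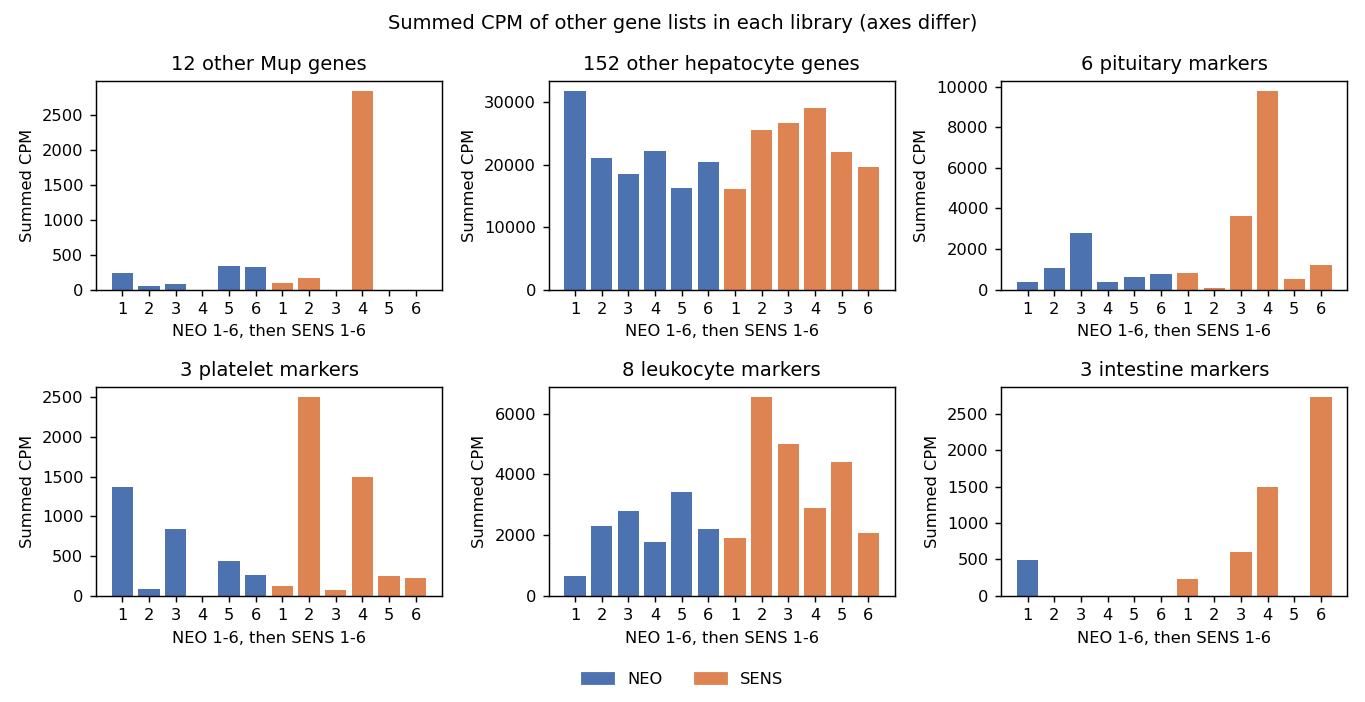
Summed CPM (vertical axes, which differ between panels) of 6 gene lists without the 8 genes in the 6 NEO and 6 SENS libraries, 1 bar per library. The other Mup genes and the pituitary list are highest in SENS 4, and the other lists have their highest values in other libraries.

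Markers of other cell types were compared over the same libraries. The pituitary list (6 of 8 genes in the table) summed to 9796 CPM (105.2 reads) in SENS 4 and to between 64.1 and 3629 CPM elsewhere. Prl, the hormone prolactin, had 52 of its 53 reads in SENS 4 (4842 CPM), and Gh, growth hormone, had 33 of 36 (3073 CPM). Lhb and Tshb were highest in SENS 6 and SENS 3. Thus the 8 liver genes, as a sum, and Prl and Gh were high in the same library, and the part of pituitary tissue in the result was not tested.

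Blood cell markers did not peak in SENS 4. The red blood cell list (3 of 7 genes in the table) was at 0 there, and Slc4a1 and Hba-a1 were each above 0 in 1 other library. Platelet genes (3 of 5) had 1490 CPM in SENS 4 and 2502 CPM in SENS 2, and leukocyte genes (8 of 9) had 2887 and 6543 CPM in these libraries, while Ms4a1 was at 0 throughout. Sis, the intestinal sucrase-isomaltase, had 16 reads in SENS 4 and 50 in SENS 6, the library that held Mup6.

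The genes whose levels followed the summed level of the 8 genes most closely over the 12 libraries were Asb18 (Spearman 0.89), Etaa1os (0.83), Dsc1 (0.81), Ugt1a6a (0.77) and Cyp19a1 (0.75), of 1928 genes compared. Without SENS 4 the values were 0.86, 0.77, 0.75, 0.70 and 0.68. The genes were picked as the highest of the 1928 over all 12 libraries, so high values over the remaining libraries were largely fixed by that choice. The points share their libraries and depths, and the correlations are descriptions. Asb18 had 6 of its 21 reads in SENS 4, and Cyp19a1, the enzyme that makes oestrogens, was highest in SENS 6.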

How the data were processed

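RNA bound to HA-tagged ribosomes was sequenced in 6 NEO and 6 SENS libraries. The authors deposited 1 table of CPM values for 5764 genes. Per the submitters' processing notes, FastQC, HISAT2, featureCounts, edgeR and the builds GRCm38 and mm10 were used. Versions, strand use, multi-mapping rules and the filter behind the table are not stated in the sources used here. Columns sum to between 999936 and 1000000 CPM, so levels are relative to the table's genes. Each column's most frequent value above 0 gave the CPM of 1 read, and 81.2% of values above 0 then came out as whole reads (tolerance 0.005 reads), too few for a count model.

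SENS was compared with NEO with limma 3.58.1 (R 4.3.3, trended variance, two-sided) on log2(CPM + 1) over the 5141 genes averaging 1 CPM or more, adjusted by Benjamini-Hochberg and called under 0.05. The test was checked on simulated reads with 1 spread for all genes. Those reads do not hold genes concentrated in a single library, so the check does not cover such genes. No 2 libraries held the same reads (at most 5.57% of genes matched).

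The members and gene lists were chosen with earlier results of these data known. Named genes are the 8 members, the 5 genes most like their sum (above 0 in at least 4 libraries), the 4 most abundant genes of each list and markers at 0; Fgb and genes found in SENS 4 alone were added after their values were seen. Some genes that the rule names are not reported here. Of the table's symbols 5728 (99.4%) matched RefSeq GRCm38.p6, which gave coordinates and promoters; protein sequences were not used here. Kidney (4 of 6 genes in the table), pancreas (4 of 8; Ins2 at 0), choroid plexus (3 of 11) and intestine (3 of 7; Lct at 0) lists were also summed. Alternatives changed the pseudocount, filter, normalisation, variance model and libraries.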

Additional observations from a re-analysis of the deposited data

Results flagged for a closer look

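In groups of 6 libraries a value was singled out when its gap to the nearest library was above Dixon's critical share of the group's range. This held for 17 of 40 groups looked at, 11 of them through SENS 4. Groups at 0 in every library could not be singled out. The rule's rate of about 1 in 20 groups holds for normal values, and these are sparse counts. The groups share libraries, and a gene above 0 in 1 library always meets the rule. Many of the values are also those the genes were selected on, so the count tests nothing.

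In SENS 4 the values were 7449 CPM for Alb, 652 CPM for Ahsg, 1024 CPM for Fga, 279 CPM for Apoa5, 559 CPM for Cyp3a11 and 698 CPM for Mup3. The sum of the 8 genes was 11966 CPM there and that of the other Mup genes 2838 CPM. The pituitary list had 9796 CPM in SENS 4, with Prl at 4842 CPM and Gh at 3073 CPM. The hepatocyte genes named here, the other Mup genes and Prl and Gh thus stood out in the same library. The other hepatocyte genes, by number above 0 or by summed CPM, were not singled out in any library. Nor were the other cytochrome P450 genes, by summed CPM.

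Outside SENS 4 the values that stood out were of other genes and libraries. Fga had 979 CPM in NEO 3, where the pituitary list had 2797 CPM. Fgg had 1033 CPM in NEO 6 and Mup6 1366 CPM in SENS 6. Fgb had 4104 CPM in NEO 1, where the intestine list had 489 CPM.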

How the results depend on the processing

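No gene was called under any of 22 alternative fits (smallest adjusted p from limma between 0.177 and 0.813). Of 165 log2 differences of the 8 genes recomputed, 13 changed sign, all in Fga or Fgg, and none was called. Leaving out 1 library, Fga (-0.29 in all libraries) ran from -1.74 without SENS 4 to 1.10 without NEO 3, with 0.75 without NEO 5 and 0.26 without SENS 1, 2, 3 or 6. Fgg (0.18) ran from -0.93 without SENS 4 to 1.39 without NEO 6, with -0.61 without NEO 2, 3 or 4, -0.24 without SENS 3 and -0.78 without SENS 6. Without SENS 4 and SENS 6 together, a choice made after seeing the data, Fgg was -2.41. The cause was not tested. Alb ran from 0.94 to 4.05, Mup3 from 0.79 to 3.99 and Mup6 from 1.06 to 4.32 over all alternatives. With 1 library left out, the summed difference ran from -47.2 CPM without SENS 4 to 2320 CPM without SENS 2, and within runs of library numbers from -477 to 3677 CPM. Combinations of gene and library above 0 fell from 27 to 17 at 3 reads or more.

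With the replicate number as a block, Alb differed by 2.94 and 0 genes were called (smallest limma adjusted p = 0.717), and the block changed no call. The numbers did not pair libraries (correlations of deviations between -0.032 and 0.082), and only number 2 correlated best with its own number.

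Depth limits every level here: a 0 allows 164 to 435 CPM in a library and 10 of the 19 combinations of gene and library above 0 outside SENS 4 rested on under 3 reads. Ahsg, Apoa5 and Cyp3a11 could not be fitted without SENS 4, nor Mup6 without SENS 4 and 6, and Ahsg, Apoa5, Cyp3a11 and Mup3 fell below a filter of 100 CPM.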

Other observations

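Some liver genes had nearly all their reads in 1 library, a share of genes near that over the whole table. Of 94 genes of the liver, cytochrome P450 and Mup lists with at least 10 reads, 9 had at least 80% of them in 1 library (9.57%, beside 7.37% of the 2782 genes with as many reads). Mup6 is one of the 9. SENS 2 held 5 of them, though Alb had 2 reads there. These were Cyp4a12b (30 of 30 reads) and Cyp4a12a (10 of 10), which oxidise fatty acids, Igfals (32 of 37), which carries insulin-like growth factors in plasma, Kmo (17 of 17), an enzyme of tryptophan breakdown, and Gcgr (12 of 12), the glucagon receptor. SENS 6 held Azgp1 (20 of 22) beside Mup6. NEO 6, where Alb was at 0, held G6pc (13 of 13), the last enzyme of glucose release. SENS 4 held Abcg8 (9 of 11), a sterol exporter of bile. These genes were picked after their values were seen. How many such genes of the whole table lay in SENS 2 was not counted, so nothing is read from the 5 there.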
